A study of Mus musculus with 34 samples.

Results

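Cumulus cells (CCs) form the granulosa layers closest to the oocyte, and they are joined to one another and to the oocyte by gap junctions. The 8 genes described here encode parts of the system by which these cells pass small molecules to one another and hold the oocyte in meiotic arrest: *Gja1* (connexin 43), *Gjc1* (connexin 45), *Cdh2* (N-cadherin), *Npr2*, *Nppc*, *Pde5a*, *Impdh1* and *Impdh2*. They were chosen by gene symbol from a table with 25965 entries, each symbol matched 1 entry, and all 8 had reads in at least 1 of the 34 libraries. *Gja1*, *Cdh2*, *Npr2*, *Pde5a*, *Impdh1* and *Impdh2* had enough reads to be tested in every comparison, whereas *Gjc1* and *Nppc* had too few reads to be tested in any.

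Each library held RNA of about 50 CCs of a superovulated female C57BL/6J mouse. The labels give 1 complex as the source of a library, while the study's methods count cells per animal, so it is not certain that n is a number of mice. For the hyperleptinemic model, 8-week-old mice were injected intraperitoneally for 16 days, either with saline (16 C, n = 3) or with leptin at a daily dose of 100 μg (16 L, n = 5). For diet-induced obesity, mice of the same age were given chow diet (CD, 11% of energy from fat per the labels) or high-fat diet (HFD, 58%) for 4 weeks (n = 5 and 5) or 16 weeks (n = 6 and 7), and 3 further libraries came from low weight gainers on HFD for 16 weeks. The low weight gainers were set apart from the other 16-week HFD mice by body weight and not by treatment. Mice were 8 weeks old when each protocol began, so the 16-week groups were older at collection than the 4-week groups.

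Connexin 43 is the main gap junction protein between CCs, and connexin 45 is a second granulosa connexin. N-cadherin joins neighbouring granulosa cells through adherens junctions. Before ovulation, C-type natriuretic peptide (encoded by *Nppc*, made mainly by mural granulosa cells) binds the guanylyl cyclase NPR2 of CCs, which makes cGMP from GTP. IMPDH1 and IMPDH2 catalyse the rate-limiting step of guanine nucleotide synthesis, and PDE5A breaks cGMP down. cGMP passes through gap junctions into the oocyte, where it keeps the cAMP phosphodiesterase PDE3A inhibited and so holds meiosis arrested. Luteinizing hormone ends this state in the follicle by lowering cGMP and closing gap junctions. The CCs here were collected after superovulation, so the levels below are not those of follicles before ovulation.

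All 8 are protein-coding genes. The deposited table (GRCm38) places *Gja1* at chr10:56377300-56390419 (plus strand), *Gjc1* at chr11:102799579-102819700 (minus), *Npr2* at chr4:43631935-43651244 (plus), *Nppc* at chr1:86666293-86670573 (minus), *Pde5a* at chr3:122729158-122859374 (plus), *Impdh1* at chr6:29200434-29216364 (minus) and *Impdh2* at chr9:108560534-108565519 (plus). Antisense entries overlap *Npr2* (*Gm12473*, 45 counts in all) and *Cdh2* (*Gm15485*, 34 counts).

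Promoter windows are given for *Gja1*, *Npr2* and the IMPDH pair because the comparisons below turn on them, and *Impdh1* has 2 annotated starts. Each window holds the 250 bases before the RefSeq start (GRCm38.p6), read 5′ to 3′ on the gene's own strand, and 6 of the 8 genes had an entry. The motifs searched on both strands were the AP-1 site TGAGTCA, the cAMP response element TGACGTCA and its shorter core TGACG, the E-box CACGTG, the GC box GGGCGG, the TATA box TATAAA, the CCAAT box, and the binding site of NR5A receptors CAAGGTCA, with matches in capitals; the core also lies within the full cAMP response element.
Gja1, chr10:56377050-56377299, plus strand: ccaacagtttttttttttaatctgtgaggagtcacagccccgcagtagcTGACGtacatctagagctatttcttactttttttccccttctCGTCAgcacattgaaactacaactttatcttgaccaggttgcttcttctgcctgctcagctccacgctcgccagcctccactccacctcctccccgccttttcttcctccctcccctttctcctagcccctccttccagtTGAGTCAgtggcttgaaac
Npr2, chr4:43631685-43631934, plus strand: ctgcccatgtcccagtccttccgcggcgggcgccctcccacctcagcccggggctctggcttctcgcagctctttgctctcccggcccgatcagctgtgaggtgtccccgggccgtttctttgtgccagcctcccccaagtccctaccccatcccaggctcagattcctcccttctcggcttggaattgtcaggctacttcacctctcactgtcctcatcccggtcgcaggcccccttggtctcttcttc
Impdh1 upstream start, chr6:29216365-29216614, minus strand: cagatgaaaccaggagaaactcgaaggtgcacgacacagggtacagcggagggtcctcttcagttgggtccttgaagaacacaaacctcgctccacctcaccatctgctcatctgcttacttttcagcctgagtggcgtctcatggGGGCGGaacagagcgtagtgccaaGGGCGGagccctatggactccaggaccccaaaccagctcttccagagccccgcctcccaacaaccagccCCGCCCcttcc
Impdh1 downstream start, chr6:29212298-29212547, minus strand: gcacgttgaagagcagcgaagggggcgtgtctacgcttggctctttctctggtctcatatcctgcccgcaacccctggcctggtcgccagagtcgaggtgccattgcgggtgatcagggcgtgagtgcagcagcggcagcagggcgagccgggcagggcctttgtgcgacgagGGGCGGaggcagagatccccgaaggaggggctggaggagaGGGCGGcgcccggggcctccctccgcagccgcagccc
Impdh2, chr9:108560186-108560435, plus strand: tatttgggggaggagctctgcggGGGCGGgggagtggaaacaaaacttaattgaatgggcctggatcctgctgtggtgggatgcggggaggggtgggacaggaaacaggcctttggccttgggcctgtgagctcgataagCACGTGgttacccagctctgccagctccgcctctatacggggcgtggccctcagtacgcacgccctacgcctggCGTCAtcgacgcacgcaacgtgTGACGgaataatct

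The *Gja1* window held 1 AP-1 match at position -19 (position -1 being the base before the start) and 2 matches to the core of the cAMP response element, at -201 and -159. An AP-1 match was present in 4.46% and the core in 17.8% of all 32851 mouse windows of this length. The 2 *Impdh1* windows differed from that of *Impdh2*: they held 3 and 2 GC boxes and no other match, while the *Impdh2* window held 1 GC box, 1 E-box at -110 and 2 cores, at -36 and -14. A GC box was present in 32.7% and an E-box in 6.02% of windows. None of the letters searched occurred in the *Npr2* window, whose GC content was 64.4%, against 50.0% for *Gja1* and a median of 52.4% over all windows. These are matches of letters and were not tested as binding sites.

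The authors deposited raw read counts per gene. Library totals ranged from 1104611 to 13207018 counts, which sets the precision for weakly expressed genes, and for a gene without reads the upper limit in a library is 3 counts, or 0.227 to 2.72 counts per 1000000, for counting error only. Levels are given as such counts per 1000000 (CPM) after TMM normalization over the 34 libraries. Granulosa identity was checked with 8 markers: *Inha* (285 to 1085 CPM), *Inhba*, *Nr5a2*, *Fshr*, *Foxl2* and *Kitl* had reads in all 34 libraries, *Cyp19a1* in 32 and *Amh* in 18. The library of 16 L replicate 18 stood apart, with 33514 CPM of *Ovgp1*, the oviduct glycoprotein, 973 CPM of the stromal gene *Dcn*, 11228 CPM over 3 red blood cell genes, and 2 of 4 cumulus expansion markers at 0. Other leptin libraries also had genes of other cells: replicate 21 had 1939 CPM of red blood cell genes (at most 185 CPM outside 16 L), and replicates 20 and 23 had 887 and 1029 CPM over the macrophage and neutrophil markers (at most 679 CPM outside 16 L). In 4-week HFD replicate 5, all 10 oocyte markers had reads (346 CPM summed, against at most 18.95 CPM in any other library). The share of counts on the 50 most abundant genes was 13.4% to 20.2% in 17 libraries (all 4-week, all 16 L, and 16-week CD replicates 1 and 2) and 23.4% to 34.6% in the other 17. With about 50 cells pooled per library, fewer cells of a type and less RNA per cell cannot be told apart. The p-values measure only the spread between these libraries, which may be technical and would be too small for mice if libraries shared one.

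**Figure D1:**
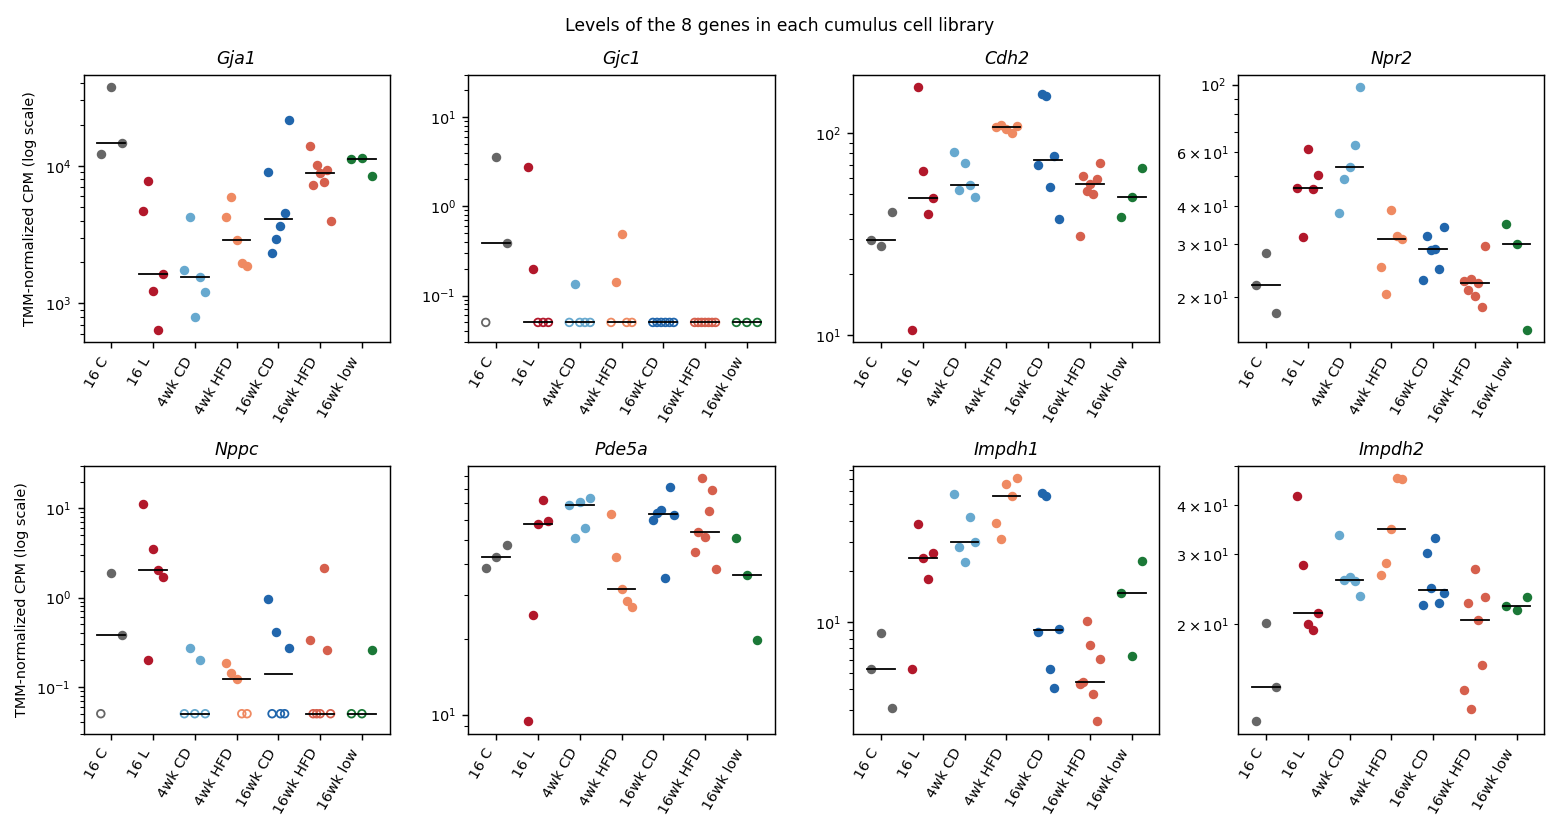
Levels of the 8 genes in TMM-normalized CPM (vertical axes, log scale) in each library, by group (horizontal axes); each point is 1 library, open points are libraries with 0 counts drawn at the foot of the axis, and lines are group medians, drawn at the same foot where the median is 0. *Gja1* spans 638 to 37691 CPM, while *Gjc1* and *Nppc* never exceed 11.1 CPM, and *Impdh1* in 16-week CD splits into 2 libraries at 56.0 and 58.2 CPM and 4 libraries at 4.07 to 9.09 CPM.

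*Gja1* was by far the most abundant of the 8 genes. It took 0.0839% to 2.41% of all counts of a library and ranked between 2 and 110 (median 10) among the 25965 entries. Per kilobase of exon (GENCODE M21 union, which is 10257 bases for *Gja1* and includes long transcript ends) its median level over the libraries was 451 CPM. The next genes on that scale were close together, with medians of 7.63 for *Impdh2*, 7.17 for *Cdh2*, 6.36 for *Npr2*, 5.33 for *Pde5a* and 4.97 for *Impdh1*. The GENCODE span of *Gja1* ends at 56402513, past the deposited end at 56390419, and the spans of *Impdh2* and *Pde5a* differ too. Exon length can therefore include bases outside the deposited spans, and the levels per kilobase are approximate. By group median, *Gja1* was lowest in 4-week CD (1540 CPM) and 16 L (1637 CPM), intermediate in 4-week HFD (2898 CPM) and 16-week CD (4102 CPM), and highest in 16-week HFD (8909 CPM), the low weight gainers (11269 CPM) and 16 C (14612 CPM). Neighbours in this order overlapped, apart from the low weight gainers and 16 C.

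*Gjc1* was close to undetectable. It had no read in any of the 16 libraries of the 16-week experiment, 1 read in 4-week CD, and 2 and 4 reads in 2 libraries of 4-week HFD. Most of its reads came from 2 libraries, 30 in 16 C replicate 2 (3.55 CPM) and 16 in 16 L replicate 18 (2.73 CPM), with 1 in 16 C replicate 3 and 2 in 16 L replicate 19. The first of these is the deepest library, and the second is the one with the oviduct and stromal genes. Of the other 21 connexin and pannexin genes, 1 passed the filter (the pannexin *Panx1*), and *Gja4*, the oocyte connexin 37, had 32 reads in 10 libraries, 21 of them over the 5 libraries of 4-week HFD, with the highest level in replicate 5, which has the oocyte markers (2.09 CPM), where their part was not tested.

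*Nppc*, the ligand, was likewise at the limit of detection, with 0 to 16 reads in each of the 16 C, diet and low weight gainer libraries. In 16 L it had 65 (replicate 18), 2 (replicate 19), 8 (replicate 20), 3 (replicate 21) and 5 reads (replicate 23), or 11.1, 0.200, 3.49, 2.07 and 1.69 CPM. In 16 C it had 0, 16 and 1 reads, or 0, 1.89 and 0.386 CPM. The groups overlapped, and the difference of mean log2(RPM + 1) was 1.46 in favour of 16 L (exact permutation test, two-sided, p = 0.125, smallest possible 0.0179, adjusted p = 0.875 over 7 tests of *Nppc* and *Gjc1*). The other 6 tests had p from 0.444 to 1.

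The receptor *Npr2* ranged from 15.6 to 98.5 CPM. Its group medians ran from 21.95 CPM in 16 C and 22.3 CPM in 16-week HFD, through 28.7 CPM in 16-week CD, 29.9 CPM in the low weight gainers and 31.1 CPM in 4-week HFD, to 45.6 CPM in 16 L and 53.6 CPM in 4-week CD, and all neighbours overlapped. *Npr1*, the receptor for atrial natriuretic peptide, had reads in all libraries (13.8 to 154 CPM), whereas the clearance receptor *Npr3* had 72 reads in all. *Pde5a* was between 9.39 and 88.1 CPM, lowest by median in 4-week HFD (31.7 CPM) and highest in 4-week CD (68.5 CPM). The oocyte enzyme *Pde3a* had 10 reads over the 34 libraries, and the cGMP-dependent kinase *Prkg1* had 17.

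*Impdh2* varied least of the members with reads in every library (4.12-fold between the lowest and the highest library, 11.4 to 46.7 CPM), and *Impdh1* varied 27.6-fold (2.58 to 71.4 CPM). The medians of *Impdh1* rank from 4.41 CPM in 16-week HFD and 5.30 CPM in 16 C to 29.8 CPM in 4-week CD and 55.9 CPM in 4-week HFD, with overlap between neighbours. *Cdh2* ranged from 10.6 to 171 CPM, with both extremes in 16 L (replicates 18 and 19). Its group medians ran from 29.5 CPM in 16 C, through 47.9 to 73.7 CPM in 5 groups, to 108 CPM in 4-week HFD, and those of *Impdh2* from 13.9 CPM in 16 C to 34.8 CPM in 4-week HFD, with overlap between neighbours for both.

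Leptin treatment was compared with saline to ask how 16 days of high leptin change CC transcripts. All 5 leptin libraries had less *Gja1* than all 3 saline libraries, and all 5 had more *Npr2*. *Gja1* was at 12168, 37691 and 14612 CPM in 16 C (replicates 1, 2 and 3) and at 4718, 7802, 1224, 638 and 1637 CPM in 16 L (replicates 18, 19, 20, 21 and 23). The fitted log2 fold change was -2.76 (SE 0.878, 95% interval -4.48 to -1.04), and its adjusted p by edgeR was 0.0732. *Npr2* was at 21.95, 28.0 and 17.7 CPM in 16 C and at 45.6, 31.6, 61.4, 45.4 and 50.6 CPM in 16 L. Its log2 fold change was 1.04 (SE 0.349), with an adjusted p of 0.0830 by edgeR. Both genes thus had groups that did not overlap but missed the threshold of 0.05. Non-overlap was common in this comparison, with 23.4% of the 11723 genes tested.

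*Impdh1* was at 5.30, 8.63 and 3.08 CPM in 16 C and at 5.29, 38.2, 23.96, 17.9 and 25.6 CPM in 16 L. Replicate 18 was at the saline level and the other 4 leptin libraries were above all saline libraries (log2 fold change 1.91, SE 0.650, edgeR adjusted p = 0.0859). The remaining members were *Impdh2* at 0.78 (SE 0.416), *Cdh2* at 1.02 (SE 0.715) and *Pde5a* at 0.04 (SE 0.571), with adjusted p of 0.218, 0.342 and 0.971 by edgeR. The 95% interval for *Pde5a*, -1.08 to 1.16, spans 0 and is wide in both directions. In all, edgeR called 0 of the 6 members tested at an adjusted p of 0.05, against 8.56% of all genes, 4.06% higher and 4.5% lower. At an unadjusted p of 0.05 by edgeR it was 3 of 6 members against 32.4% of all genes. At an adjusted p of 0.05, DESeq2 called 3 of 6 against 22.4%, and limma-voom 3 of 6 against 64.4%.

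Calls in the leptin comparison changed with single libraries. Without 16 L replicate 18, the library with the oviduct and stromal genes, *Gja1* (log2 fold change -3.08, adjusted p = 0.0146 by edgeR), *Npr2* (0.95, 0.0413) and *Impdh1* (2.04, 0.00571) passed. These are 3 of 6 members, in a fit that called 4635 of 11077 genes, in place of 1004 of 11723. Without 16 L replicate 19, *Gja1* and *Npr2* passed, 2 of 6 members where 1603 of 11103 genes did, and *Cdh2* moved from 1.02 to 0.31. Leaving out a saline library gave no call of a member: without 16 C replicate 2, *Gja1* was at -2.05 (adjusted p = 0.207 by edgeR). Only 30 genes in all were called without 16 C replicate 1. Over all genes, the median change on the log2 scale was 0.27 under TMM and 1.07 on total counts, where 89.9% of calls were higher against 47.4% under TMM. Set against that median, *Gja1* was at -3.04 under TMM and -3.06 on total counts, *Npr2* at 0.77 and 0.80, and *Impdh1* at 1.64 and 1.75. Scaling moves all genes of a library together, so this closeness follows largely from the subtraction and is not a separate check. The cumulus expansion markers (*Has2*, *Ptgs2*, *Tnfaip6*, *Ptx3*) summed to 1195 to 2192 CPM in 16 C and 2.22 to 640 CPM in 16 L, and the share on the 50 most abundant genes was 30.7% to 34.6% in 16 C and 13.4% to 19.8% in 16 L. The 5 oviduct genes summed to 26.5 to 108 CPM in 16 C and to 8.09 to 34122 CPM in 16 L, with 4 of 5 leptin libraries above all saline libraries. These move with the treatment, as *Gja1* does, and their part in its values was not tested.

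**Figure D2:**
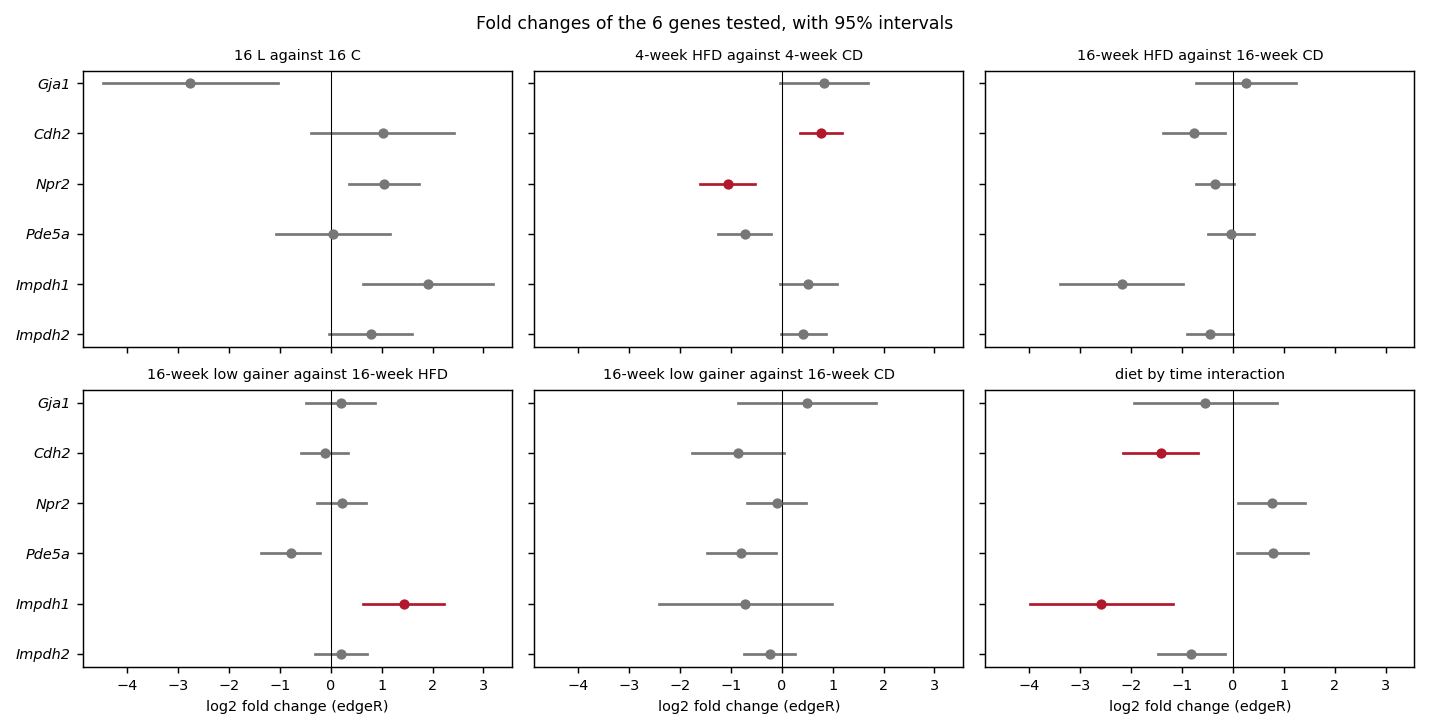
Log2 fold changes (horizontal axes) of the 6 genes tested (vertical axes) in the 5 pairs of groups and in the diet by time interaction, as edgeR estimates with bars of 1.96 SE on each side; red marks an adjusted p under 0.05. *Npr2* and *Cdh2* are red at 4 weeks, *Impdh1* in the low weight gainers against 16-week HFD, and *Impdh1* and *Cdh2* in the interaction.

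Diet was compared at 4 weeks to ask what early HFD changes in CCs. *Npr2* fell and *Cdh2* rose in 4-week HFD, and the remaining 4 members tested did not pass. *Npr2* was at 37.9, 49.0, 53.6, 63.2 and 98.5 CPM in 4-week CD (replicates 11, 1, 2, 7 and 8) and at 25.2, 20.5, 38.9, 31.9 and 31.1 CPM in 4-week HFD (replicates 13, 14, 3, 4 and 5). The groups overlapped by 1 library on each side, HFD replicate 3 lying just above CD replicate 11, and the log2 fold change was -1.06 (SE 0.277, adjusted p = 0.0424 by edgeR). *Cdh2* was at 81.1, 52.4, 71.5, 55.5 and 48.7 CPM in 4-week CD and at 108, 110, 105, 100.2 and 109 CPM in 4-week HFD. Here the groups did not overlap, the HFD libraries lay close together, and the log2 fold change was 0.77 (SE 0.207, adjusted p = 0.0468 by edgeR). Non-overlap was seen in 6.61% of genes tested in this comparison.

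*Pde5a* was at 68.5, 50.7, 70.9, 55.9 and 73.4 CPM in 4-week CD and at 63.1, 42.6, 31.7, 28.4 and 26.9 CPM in 4-week HFD. Only 4-week HFD replicate 13 lay within the range of the chow libraries (log2 fold change -0.73, SE 0.264, adjusted p = 0.110 by edgeR). *Gja1* was at 0.83 (SE 0.440), *Impdh1* at 0.52 (SE 0.284) and *Impdh2* at 0.42 (SE 0.224) on the log2 scale, with overlapping groups and adjusted p between 0.252 and 0.267 by edgeR. Thus 1 of 6 members was called higher, against 1.19% of all genes, and 1 of 6 lower, against 3.06% (4.26% in either direction). Both calls sat close to the threshold: leaving out 1 library at a time ended both in 9 of 10 fits, all but the one without 4-week CD replicate 11 (-1.20 with adjusted p = 0.0106 for *Npr2* and 0.88 with 0.0151 for *Cdh2*, by edgeR). Without 4-week HFD replicate 5, the library with the oocyte genes, the values were -1.07 (adjusted p = 0.0859 by edgeR) and 0.78 (0.0966), and *Cdh2* was also above 0.05 on total counts (0.0731). The calls over all genes moved as well. Leaving out 1 library gave 8 (without 4-week CD replicate 8) to 1700 (without 4-week CD replicate 11), against 499 with all libraries.

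Diet was next compared at 16 weeks, the late stage of obesity. None of the 6 members was called, in a comparison where edgeR called 3 of 10861 genes (0.0276%). At an unadjusted p of 0.05 by edgeR it was 2 of 6 members against 25.3% of all genes. At an adjusted p of 0.05, DESeq2 called 1 of 6 against 9.72%, and limma-voom 0 against 0.046%. *Impdh1* had the largest difference. It was at 58.2 and 56.0 CPM in 16-week CD replicates 1 and 2, at 4.07 to 9.09 CPM in the other 4 chow libraries, and at 2.58 CPM (lowest), 4.41 CPM (median) and 10.2 CPM (highest) in 16-week HFD. The log2 fold change of -2.18 (SE 0.618, adjusted p = 0.0662 by edgeR) became -0.30 (adjusted p = 0.805) without those 2 libraries. They are the 16-week libraries with a low share of counts on the 50 most abundant genes, 14.9% and 15.5%, against 24.3% to 30.4% in the other chow libraries.

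*Cdh2* was high in the same chow libraries. It was at 156 and 153 CPM in replicates 1 and 2, at 37.8 to 77.7 CPM in the other chow libraries, and at 31.0 CPM, 56.0 CPM and 71.4 CPM (lowest, median and highest) in 16-week HFD (log2 fold change -0.77, SE 0.313, adjusted p = 0.142 by edgeR, and -0.07 with 0.923 without the 2 libraries). *Gja1* was at 2332, 4102 and 21523 CPM (lowest, median and highest) in 16-week CD and at 3971, 8909 and 13962 CPM in 16-week HFD, and its log2 fold change of 0.26 had an interval from -0.72 to 1.24. Without replicate 9, the chow library with the most *Gja1*, *Gja1* was at 0.97 (adjusted p = 0.0932 by edgeR), and *Impdh1* (adjusted p = 0.0182 by edgeR) and *Cdh2* (0.0307) passed, along with 2222 genes in all, and *Impdh1* alone passed without replicate 13. *Npr2* (-0.35, SE 0.192), *Impdh2* (-0.45, SE 0.230) and *Pde5a* (-0.03, SE 0.233) had adjusted p of 0.255, 0.224 and 0.937 by edgeR. No member had groups that did not overlap, as 0.994% of genes tested did.

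The change with diet was then compared between 4 and 16 weeks, as an interaction over the same 23 libraries as both diet comparisons. *Impdh1* and *Cdh2* had lower changes at 16 weeks than at 4 weeks. For *Impdh1* the change with HFD was 0.52 at 4 weeks and -2.18 at 16 weeks in the separate fits, and the interaction was -2.58 (SE 0.718, adjusted p = 0.0447 by edgeR). For *Cdh2* the changes were 0.77 and -0.77, and the interaction was -1.42 (SE 0.379, adjusted p = 0.0363 by edgeR). *Impdh2* had the same sign (-0.82, SE 0.334), and *Npr2* (0.76, SE 0.332) and *Pde5a* (0.78, SE 0.354) the opposite, with adjusted p of 0.138, 0.164 and 0.181 by edgeR. *Gja1* was at -0.54, with an interval from -1.94 to 0.86.

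Of the 6 members tested, 2 were called lower and 0 higher in the interaction, against 1.92% and 1.74% of all genes (3.66% in either direction). Neither call held when 16-week CD replicates 1 and 2 were both left out: *Impdh1* was then at -0.88 (adjusted p = 0.325 by edgeR) and *Cdh2* at -0.88 (0.136). Leaving out 1 library at a time, each gene stayed called in 9 of 23 fits: without 16-week CD replicate 13, 5, 8 or 9, 16-week HFD replicate 6, 4-week CD replicate 11 or 4-week HFD replicate 13 or 14 for both, and without 16-week HFD replicate 12 for *Impdh1* or 11 for *Cdh2*. The calls over all genes in these fits ran from 69 (without 4-week HFD replicate 5) to 1685 (without 16-week CD replicate 9), against 448 with all libraries.

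**Figure D3:**
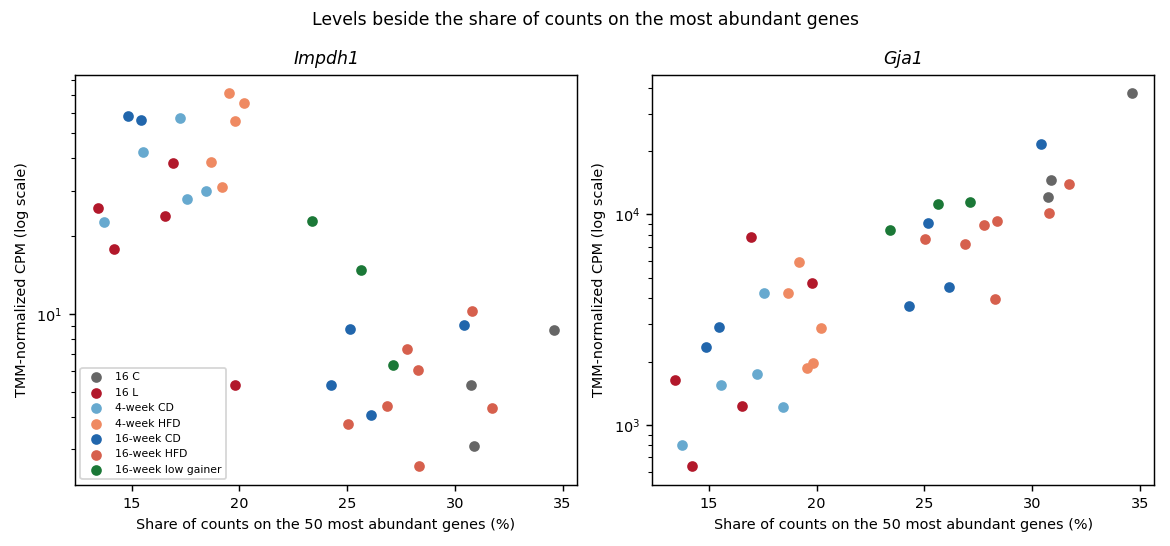
Level of *Impdh1* (left) and *Gja1* (right) in TMM-normalized CPM (vertical axes, log scale) against the share of counts on the 50 most abundant genes (horizontal axes, %), with 1 point per library coloured by group. *Impdh1* lies at 17.9 to 71.4 CPM in 16 of the 17 libraries with a share under 21% and at 2.58 to 22.9 CPM in the 17 libraries above it; the exception is 16 L replicate 18 at 5.29 CPM.

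Across all 34 libraries, *Impdh1* levels lay on different sides of this share. The 17 libraries with a share under 21% had a median of 38.2 CPM and the other 17 a median of 6.05 CPM. *Gja1* lay the other way, at a median of 1959 CPM (638 to 7802) in the first and 9266 CPM (3664 to 37691) in the second, and it is itself among the 50 most abundant genes of most libraries. *Npr2* had medians of 38.9 and 22.9 CPM, and *Cdh2* of 81.1 and 52.1 CPM. The 16 C libraries were all on one side of this divide and the 16 L libraries all on the other. For that comparison the share and the treatment cannot be told apart. Both 4-week groups were on the same side, but their shares did not overlap. They were 13.7% to 18.5% in 4-week CD and 18.7% to 20.2% in 4-week HFD, so share and diet cannot be told apart there either. The part of the share in the levels was not tested.

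The low weight gainers were compared with the other HFD mice, whose libraries also enter the diet comparison, of 16 weeks to ask what goes with a small gain in weight on the same diet. *Impdh1* rose in them. It was at 14.8, 6.34 and 22.9 CPM in the low weight gainers (replicates 21, 22 and 23), of which 2 lay above all 7 HFD libraries (2.58 to 10.2 CPM). The log2 fold change was 1.44 (SE 0.405, adjusted p = 0.0201 by edgeR). *Pde5a* was at 50.6, 36.2 and 19.8 CPM, against 38.2, 53.5 and 88.1 CPM (lowest, median and highest) in 16-week HFD (log2 fold change -0.79, SE 0.298, adjusted p = 0.0665 by edgeR).

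*Gja1* was at 11269, 11421 and 8472 CPM in the low weight gainers, within the range of the HFD libraries (log2 fold change 0.20, interval -0.48 to 0.87). The changes of *Npr2* (0.21, -0.28 to 0.70), *Impdh2* (0.20, -0.31 to 0.70) and *Cdh2* (-0.12, -0.59 to 0.35) also had intervals on both sides of 0. In this comparison 20.7% of all genes were called, 10.8% higher and 9.93% lower, and 20.4% of genes had groups that did not overlap, so 1 call among 6 members and no member without overlap lie near or under the background. *Impdh1* lost its call without low weight gainer replicate 21 (adjusted p = 0.0667 by edgeR) or 23 (0.206), and *Pde5a* gained one without low weight gainer replicate 21 (0.0488) or 16-week HFD replicate 6 (0.0302). Leaving out 1 library gave 596 (without low weight gainer replicate 23) to 2732 genes called (without 16-week HFD replicate 6), against 2330. Against 16-week CD, the low weight gainers had 0 members called by edgeR and 1 gene of 11620 (0.00861%). At an unadjusted p of 0.05 by edgeR it was 1 of 6 members against 11.2% of all genes. At an adjusted p of 0.05, DESeq2 and limma-voom called 0 members against 2.15% and 1.69%. No member was without overlap, as 7.52% of genes were. *Impdh1* was at -0.72 (SE 0.868) in that comparison and at 1.12 (adjusted p = 0.253 by edgeR) without 16-week CD replicates 1 and 2.

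**Figure D4:**
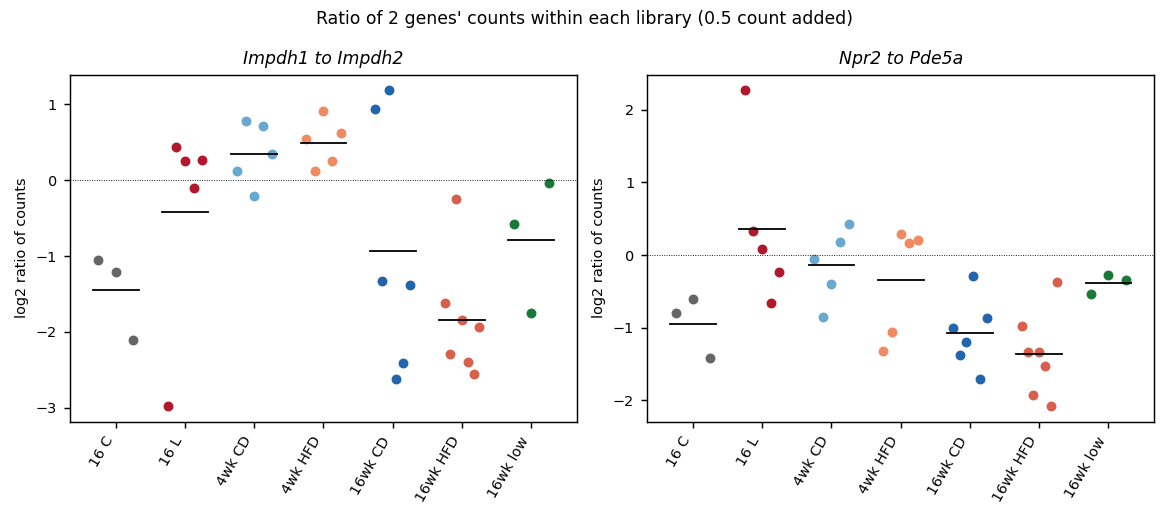
Log2 ratio of counts (vertical axes, 0.5 count added to each gene) of *Impdh1* to *Impdh2* (left) and *Npr2* to *Pde5a* (right) within each library, by group (horizontal axes); each point is 1 library and lines are group means. The IMPDH ratio lies above 0 in all 4-week HFD libraries and below 0 in all 16-week HFD libraries, and the ratio of *Npr2* to *Pde5a* lies below 0 in all 16-week libraries.

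Ratios within a library do not depend on how libraries are scaled, and they are given as a description. The mean log2 ratio of *Impdh1* to *Impdh2* counts was 0.35 ± 0.41 (SD, n = 5) in 4-week CD, 0.49 ± 0.31 (n = 5) in 4-week HFD, -0.94 ± 1.64 (n = 6) in 16-week CD, -1.84 ± 0.78 (n = 7) in 16-week HFD and -0.79 ± 0.88 (n = 3) in the low weight gainers. In 16 C it was -1.45 ± 0.57 (n = 3), and in 16 L -0.42 ± 1.44 (n = 5). By these means, *Impdh1* was the more counted isozyme at 4 weeks and *Impdh2* at 16 weeks, but not in every library. In 16-week CD replicates 1 and 2, *Impdh1* had 244 and 412 counts against 127 and 181 of *Impdh2*. In 4-week CD replicate 2 it had 38 against 44. All other diet libraries went with the means. The mean of 16 C, which is no 16-week group, lay between those of 16-week CD and 16-week HFD. Whether the ratio goes with time or with the share of counts on the most abundant genes was not tested. The ratio of *Npr2* (cGMP synthesis) to *Pde5a* (cGMP breakdown) was -0.14 ± 0.50 in 4-week CD, -0.34 ± 0.78 in 4-week HFD, -1.07 ± 0.48 in 16-week CD, -1.36 ± 0.58 in 16-week HFD and -0.38 ± 0.13 in the low weight gainers. In 16 C it was -0.94 ± 0.42, and in 16 L 0.36 ± 1.13, where replicate 18 had the highest ratio, 4.82 *Npr2* counts for each of *Pde5a*. These are ratios of counts and not of molecules, since the transcripts differ in length.

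Other genes of the same pathways were taken from 7 lists with 99 genes, all present in the table. Of these, 58 to 63 were tested in a comparison. In 16 L against 16 C, 5 rose and 1 fell of 59, against 4.06% and 4.5% of all genes, with a median log2 fold change of 0.29 against 0.27 for all genes. The rises were *Npr1* (1.72, adjusted p = 0.0478 by edgeR), the catenin *Jup* (1.80, 0.0324), the actin-binding connexin 43 partner *Dbn1* (3.10, 0.0233), the kinase *Mapk3* (1.81, 0.0263) and the phosphoribosyl pyrophosphate synthetase *Prps2* (1.49, 0.0395). *Pfas*, an enzyme of purine synthesis, fell by 3.58 on the log2 scale (0.0339), from 736 to 886 CPM in 16 C to 17.0 to 204 CPM in 16 L. The luteinizing hormone receptor *Lhcgr* was at -1.26 (SE 0.530, adjusted p = 0.135 by edgeR), and *Gmps* (-0.26), *Hprt* (-0.83), *Ctnnb1* (0.82) and *Tjp1* (0.23) did not pass.

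In 4-week HFD against 4-week CD, 0 rose and 2 fell of 60, against 1.19% and 3.06% of all genes (median 0.16 against -0.01 for all genes). The 2 falls lie near that share, so the lists do not stand out by their counts. They were the nectin *Pvrl1* (-2.48, adjusted p = 0.0206 by edgeR) and the nectin-binding protein afadin, *Mllt4* (-0.86, 0.0443). Both are adhesion genes like *Cdh2*, which rose. *Pvrl1* was weak, at 3.40 to 10.1 CPM in 4-week CD and 0.209 to 1.85 CPM in 4-week HFD. *Gmps*, the enzyme that follows IMPDH (1.03, 0.102), and *Ctnnb1*, the cadherin-binding β-catenin (-0.79, 0.126), did not pass, and neither did *Npr1* (-0.60, 0.164), *Hprt* (0.74, 0.113), *Lhcgr* (0.45) or *Tjp1* (-0.41). In 16-week HFD against 16-week CD, edgeR called 0 of 58 (17 at an unadjusted p of 0.05, where 25.3% of all genes were), with *Npr1* at -1.05 (SE 0.353, adjusted p = 0.0906).

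In the low weight gainers against 16-week HFD, 8 rose and 5 fell of 58 (median -0.06 against -0.03 for all genes), near the 10.8% and 9.93% of all genes, so the lists do not stand out by their counts. The genes that rose were *Cttn* (1.82, from 147 to 350 CPM in 16-week HFD to 726 to 1034 CPM), *Csnk1d* (1.22) and *Mapk3* (1.26) among connexin 43 partners, *Jup* (1.38), *Pvrl2* (1.26) and *Ctnna1* (0.71) among adhesion genes, *Ppp1cc* (0.85) and *Gart* (0.72). *Cttn* encodes the actin regulator cortactin, and *Csnk1d* and *Mapk3* encode kinases that phosphorylate connexin 43. The 5 that fell were *Atic* (-1.24), *Paics* (-0.70), *Mllt4* (-0.70), *Pde1a* (-0.69) and *Ppp1r12a* (-0.64). Purine synthesis thus had members in both directions, 1 higher and 2 lower of 17, while *Impdh2* and *Gmps* (-0.34, adjusted p = 0.235 by edgeR) were not called. Against 16-week CD, edgeR called 0 of 59 (10 at an unadjusted p of 0.05, where 11.2% of all genes were). In the interaction, 0 were higher and 3 lower of 63 (1.74% and 1.92% of all genes), *Jup* (-1.89), *Cttn* (-1.48) and *Csnk1d* (-1.32). Without 16-week CD replicates 1 and 2, 89 of 12280 genes were called (0.725%), and whether these 3 were among them was not examined.

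**Figure D5:**
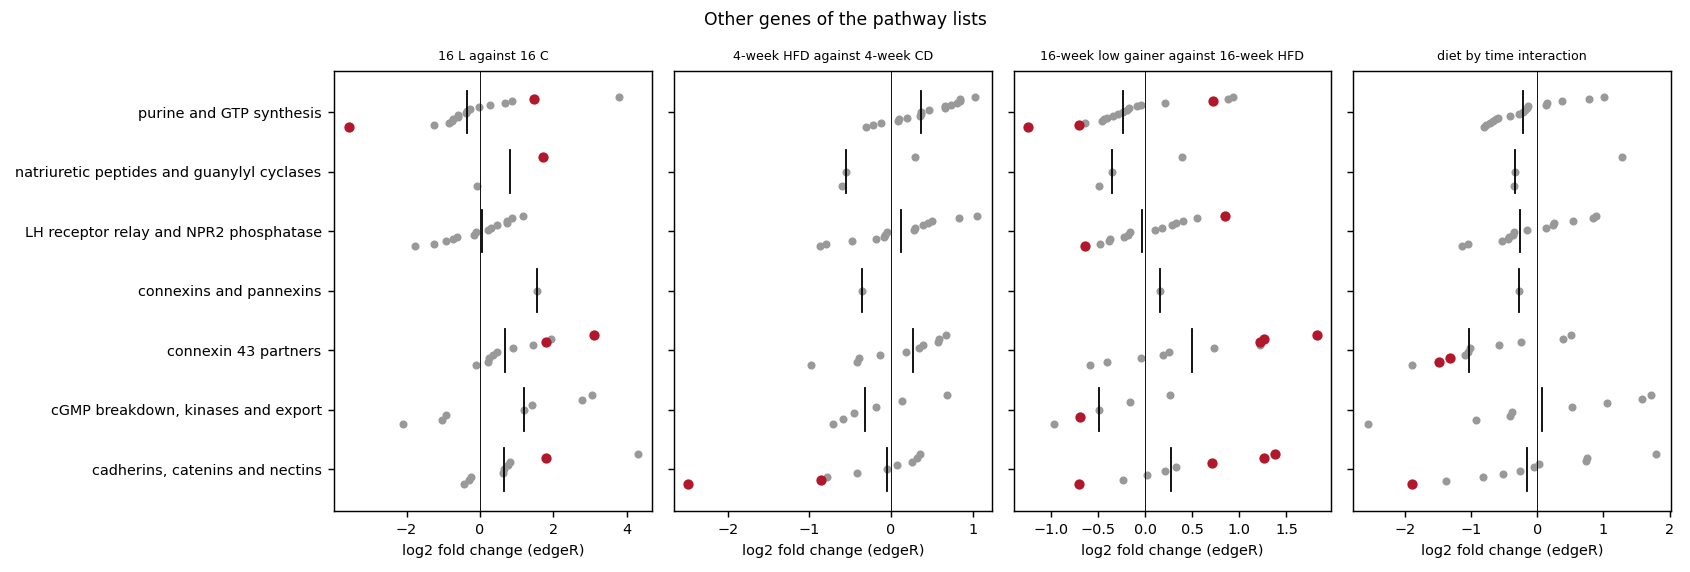
Log2 fold changes by edgeR (horizontal axes) of the tested genes of 7 pathway lists (vertical axis) in 4 comparisons; each point is a gene, red points have an adjusted p under 0.05, and vertical bars are list medians. Red points lie on both sides of 0 in the low weight gainers (8 higher, 5 lower) and to the left of 0 at 4 weeks and in the interaction.

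For each member that passed the filter over all libraries, the genes whose log2 CPM was most like it after group means were removed are named, as a description over 34 libraries that share depth and composition within each library. For *Gja1* these were *Chmp5* (r = 0.888), *Yipf4* (0.870) and *Cnpy4* (0.868), and for *Cdh2* *Tnks* (0.915), *Lipg* (0.905) and *Itga2* (0.904). For *Impdh1* they were *Bap1* (0.887), *Srebf1* (0.885) and *Atg9a* (0.875), and for *Pde5a* *Zeb2* (0.822), *Zfp369* (0.817) and *Clcn5* (0.814). Likeness was lower for *Impdh2* (*Ckb*, 0.773, *Hpcal1*, 0.737, *Rpl4*, 0.732), *Npr2* (*Ppp1r12c*, 0.753, *Cyhr1*, 0.692, *Csk*, 0.690) and *Nppc* (*Rffl*, 0.736, *Calcrl*, 0.718, *Ano5*, 0.706). Each is the top of 13235 genes compared. Among the members themselves, *Impdh1* and *Cdh2* varied in the same direction (0.627) and *Impdh2* and *Pde5a* in opposite directions (-0.677), while the isozymes *Impdh1* and *Impdh2* had an r of 0.041. Single libraries enter these values. In 16-week CD, replicates 1 and 2 had the most *Impdh1* and *Cdh2* of their group. In 16 L, replicate 18 had the most *Impdh2* (42.2 CPM) and the least *Pde5a* (9.39 CPM). Their part in r was not tested.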

How the data were processed

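RNA of about 50 CCs per library was amplified by Smart-seq2 (poly(A)-primed) and sequenced from Nextera XT libraries without molecular identifiers. The authors deposited raw read counts per gene (GRCm38); the submitters' processing notes name Trim Galore 0.4.2 and HISAT2 2.0.5, and the counting program and strand setting are not given in the sources used here, so reads of overlapping antisense genes (at *Npr2* and *Cdh2*) cannot be told apart. Groups were taken from the sample labels. Counts were filtered with filterByExpr within each comparison, TMM-normalized and tested with the robust quasi-likelihood F-test of edgeR 4.0.16 (R 4.3.3; two-sided, Benjamini-Hochberg adjusted p under 0.05 over all genes tested) on the groups compared; the interaction used all 23 diet libraries without low weight gainers. SE is the absolute log2 fold change divided by the root of F, and 95% intervals are the estimate ± 1.96 SE. *Nppc* and *Gjc1* were compared by exact permutation of mean log2(RPM + 1) (Python 3.11.15, numpy 2.4.6). Of 72 replicate pairs, 0 were identical and none agreed within sampling noise. The fit was tested on simulated data. Alternatives were DESeq2 1.42.0, limma-voom (limma 3.58.1) with sample weights, RLE normalization, total counts, no filter, a stricter filter (10 or more counts per library throughout), 1 fit over all 34 libraries, a pseudocount of 0.1, and leaving out each library; leaving out 16-week CD replicates 1 and 2 together and a replicate block in the interaction were chosen after seeing the data. Ratios used 0.5 added counts. Named were the 8 genes, up to 4 called genes of each pathway list by size of change, 10 fixed pathway genes, and the 3 genes most like each member by Pearson's r. The members and lists were chosen with earlier results of these data known. No promoter is shown for *Cdh2* or *Gjc1*.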

Additional observations from a re-analysis of the deposited data

Results flagged for a closer look

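Among 38 sets of values (1 gene in 1 group of 4 to 10 libraries), 5 had a library far from the others by Dixon's criterion. Chance alone marks about 1 in 20 groups where values are normally distributed. That rate does not apply to *Gjc1* and *Nppc*, which are near 0. *Gjc1* was at 2.73 CPM in 16 L replicate 18, where the gap to the next library was 0.862 of the group's range (critical value 0.71), and this library also had the oviduct and stromal genes. The single *Gjc1* read of 4-week CD, in replicate 1, gave 0.136 CPM, with the other 4 libraries at 0, so the gap was 1.0 by construction. *Nppc* was at 2.15 CPM in 16-week HFD replicate 15 (8 reads, gap 0.75, critical value 0.568). *Pde5a* was at 35.3 CPM in 16-week CD replicate 5, below the rest of its group (gap 0.631, critical value 0.625), and *Cdh2* was at 31.0 CPM in 16-week HFD replicate 10, also below (gap 0.579, critical value 0.568).

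The change with diet differed between 4 and 16 weeks, by edgeR's test of the interaction, for *Impdh1* (-2.58 on the log2 scale, adjusted p = 0.0447) and *Cdh2* (-1.42, adjusted p = 0.0363). Both values fell in size to -0.88 and lost their calls without 16-week CD replicates 1 and 2.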

How the results depend on the processing

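The number of members called (adjusted p under 0.05) depended on the fit, and so did the share of all genes called, given after each; 6 members were tested unless stated. For 16 L against 16 C it was 0 with edgeR (8.56%), 3 with DESeq2 (22.4%), 3 with limma-voom (64.4%), 3 on total counts (33.8%) and 4 of 7 with all 34 libraries in 1 fit (33.1%; 0 to 3 leaving out 1 library). For 4-week HFD against CD it was 2 (4.26%), and 5 with limma-voom (34.5%), 1 on total counts (5.61%), 1 of 8 without a filter (2.19%) and 1 of 7 with all libraries (0.521%; 0 to 2). For 16-week HFD against CD it was 0 (0.0276%), and 1 with DESeq2 (9.72%), 2 on total counts (14.9%) and 1 of 7 with all libraries (9.5%; 0 to 2). For the low weight gainers against 16-week HFD it was 1 (20.7%), and 0 of 5 with at least 10 counts in every library (24.6%) or of 7 with all libraries (3.68%; 0 to 2), and against 16-week CD it was 0 throughout. For the interaction it was 2 (3.66%), and 4 with limma-voom (19.2%), 1 of 8 without a filter (1.55%), 1 of 5 with at least 10 counts (6.08%), 0 of 7 with all libraries (1.19%) and 0 without 16-week CD replicates 1 and 2 (0.725%; 0 to 2). The last alternative also turned the sign of *Gja1* (-0.13) and *Pde5a* (0.060) at 16 weeks and of *Impdh1* in the low weight gainers against CD (1.12; 0.36 with limma-voom, where *Npr2* was at 0.10). *Cdh2* in the low weight gainers against HFD was at 0.042 on total counts. *Nppc* was at 0.086 (4 weeks) and -0.16 (16 weeks) with a pseudocount of 0.1. Leaving out 1 library also turned signs, none of them of a call: *Pde5a* for leptin (-0.19 to 0.22) and at 16 weeks (-0.16 to 0.050), *Npr2* and *Cdh2* in the low weight gainers against HFD (-0.020 to 0.49 and -0.36 to 0.059), *Npr2* against CD (-0.33 to 0.24), *Gja1* in the interaction (-1.05 to 0.23), *Nppc* at 4 weeks (-0.043 to 0.053), 16 weeks (-0.20 to 0.13) and in the low weight gainers against HFD (-0.30 to 0.010), and *Gjc1* for leptin (-0.61 to 0.24). Causes of these changes were not tested. Over all genes, calls ranged from 30 to 4635 for leptin (1004 in the report; 504 to 7552 under the other alternatives), 8 to 1700 at 4 weeks (499; 69 to 4048), 1 to 2222 at 16 weeks (3; 0 to 1622), 596 to 2732 (2330; 487 to 3287) and 0 to 1 (1; 0 to 250) for the low weight gainers against HFD and CD, and 69 to 1685 for the interaction (448; 10 to 2355). On total counts, 13.7% of 4-week calls were higher (28.1% with TMM), 3.39% at 16 weeks (33.3%), 72.6% in the low weight gainers against HFD (52.0%) and 21.4% in the interaction (47.5%). *Impdh1* could not be fitted with at least 10 counts in every library where it missed that limit. *Gjc1* and *Nppc* had few or no reads in most libraries, and the part of depth in this was not tested. In the 5 pairs of groups no replicate number occurred in both. In the interaction, 7 numbers occurred in 2 of the 4 groups, but nothing says that they mark the same mouse or day. The deviations of same-numbered libraries from their group means had r from -0.28 to 0.143. These few correlations over all genes cannot tell whether such libraries share a day or a batch. With a replicate block, 0 of 6 members and 10 genes were called (0.0817%), with *Impdh1* at -3.34, *Cdh2* at -2.22 and *Gja1* at 0.069.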
